A study of Mus musculus with 10 samples.

Results

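Leukocytes roll along vessel walls by binding selectins, a small family of lectins, to sugars on glycoproteins. Described here are 7 genes that build the main selectin counter-receptor of leukocytes and its sugars, measured in RNA of mouse blood. They are Selplg, Gcnt1, B4galt1, St3gal1, St3gal4, St3gal6 and Fut7, taken from the deposited table by symbol, and they are 7 of its 30984 genes. The selectin genes themselves are not among the 7, and the values of Selp and Sele are given further on. The genes were chosen by name, with the CPM and FPKM values of these same burn and NC libraries known, so the group differences of these 7 genes are a description and carry no test.

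The labels put 6 libraries under the treatment "burn wound healing", called burn here, and 4 under the same words to which the letters NC are added, called NC here. Both labels contain the burn wording, the letters NC are not expanded, and no sample label says which libraries, if any, came from animals given manganese chloride, which the series title names. The sources used here give no genotype, strain, age, time after injury or number of animals. The p-values therefore cover only sample-to-sample spread, part or all of which may be technical. The source is labelled whole blood, other label fields read lymphocyte and monocytes, and the title names PBMCs, which are blood mononuclear cells. Total counts ran from 30677206 to 36379663 per library.

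All 9 mature neutrophil, 8 T cell, 8 B cell and 7 monocyte markers checked were detected, as were 7 of 8 platelet markers, and red cell genes were abundant, so the libraries held RNA of granulocytes, platelets and red cells beside mononuclear cells. Summed neutrophil markers, in CPM (counts scaled to the library total, with TMM factors), stood at 769 to 2305 in burn and at 5952, 575.5, 954 and 4529 in NC 1 to 4. The NC libraries therefore differed from each other more than the burn libraries did. The median SD of a gene was 0.21 log2 units within burn and 0.34 within NC. Fewer cells of a type and less RNA per cell cannot be told apart in such bulk samples.

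Selplg encodes PSGL-1, a mucin-like membrane protein that leukocytes carry and that selectins bind. The protein binds only once its O-linked sugars carry a branched core 2 glycan ending in sialyl Lewis x, a fucosylated and sialylated lactosamine. Gcnt1 encodes the enzyme that makes the core 2 branch, B4galt1 adds galactose to extend it, the St3gal enzymes add terminal sialic acid, and Fut7 adds the final fucose. St3gal1 caps the unbranched core 1 glycan, the same structure that the Gcnt1 enzyme branches, whereas St3gal4 and St3gal6 act on lactosamine ends.

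Per gene length, the counter-receptor was the most abundant of the 7 transcripts and the terminal fucosyltransferase the least. On the deposited FPKM scale (fragments scaled to gene length and library total), the median over 10 libraries was 98.9 for Selplg, 38.1 for St3gal1, 26.6 for B4galt1, 15.2 for St3gal4, 6.29 for Gcnt1, 5.68 for St3gal6 and 0.978 for Fut7. The order Selplg, St3gal1, B4galt1, St3gal4 held in 10 of 10 libraries, and the ranges of those neighbours did not overlap. Gcnt1 and St3gal6 had overlapping ranges, from 4.13 to 13.4 FPKM and from 5.23 to 7.26 FPKM, with Gcnt1 above St3gal6 in 7 of 10 libraries, so their order was not fixed. The ranges of St3gal4 and Gcnt1 also overlapped, since Gcnt1 reached 13.4 FPKM in NC 1 against 12.8 FPKM for St3gal4 there, and St3gal4 was the higher in 9 of 10 libraries. Fut7 reached at most 1.26 FPKM and lay below every value of St3gal6.

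**Figure D1:**
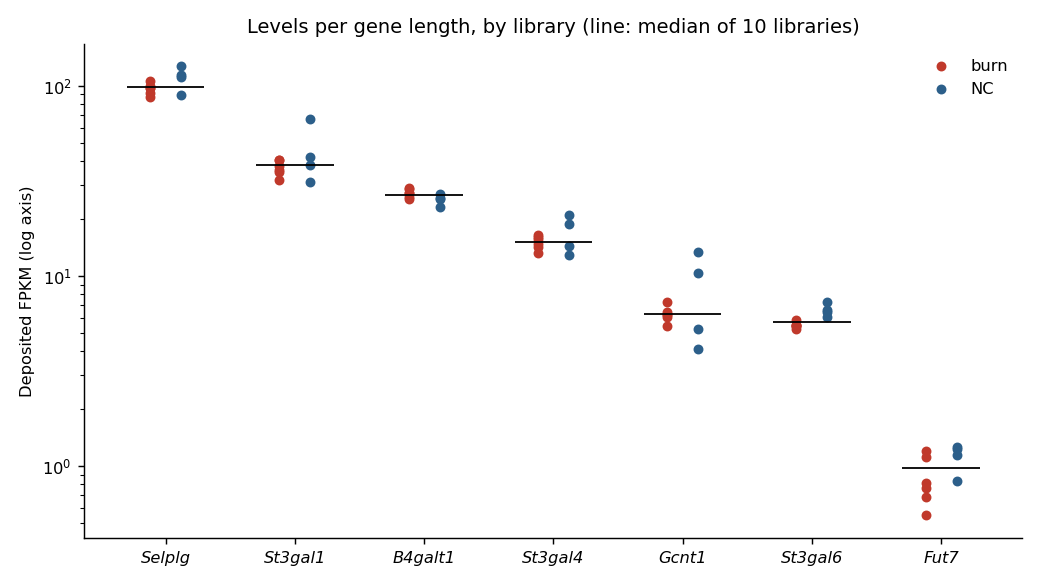
Deposited FPKM of the 7 genes in each library on a log axis, ordered by their median over the 10 libraries (black line), with burn libraries in red and NC libraries in blue. Selplg, at 86.9 to 126 FPKM, lies above all other genes and Fut7, at 0.549 to 1.26 FPKM, below all others, while Gcnt1 spreads most widely in NC.

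Of the 7 genes, 6 had lower estimates in burn and B4galt1 a slightly higher one, and none passed in the fit over all genes. Among all 17268 genes tested, 7814 had lower and 9454 higher estimates. With edgeR's quasi-likelihood test 0 of the 7 had an adjusted p under 0.05, and the background was 0.0% of 17268 genes tested. At an unadjusted p under 0.05 there were 2 of the 7, Selplg and St3gal6, both lower in burn, where 7.0% of all genes tested were lower, 4.25% higher and 11.3% either at that level. DESeq2 on the same counts called 1 of the 7, St3gal6, as lower, against 0.406% of all genes called lower, 0.087% called higher and 0.493% in either direction. The groups did not overlap for 1 of the 7, again St3gal6 as lower, against 0.683% of all genes apart with lower values, 1.34% apart with higher values and 2.03% in either direction. The median log2 difference of burn minus NC was -0.32 over the 7 genes and 0.02 over all genes tested. Nothing is read from these shares, because the genes were chosen with this contrast known.

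**Figure D2:**
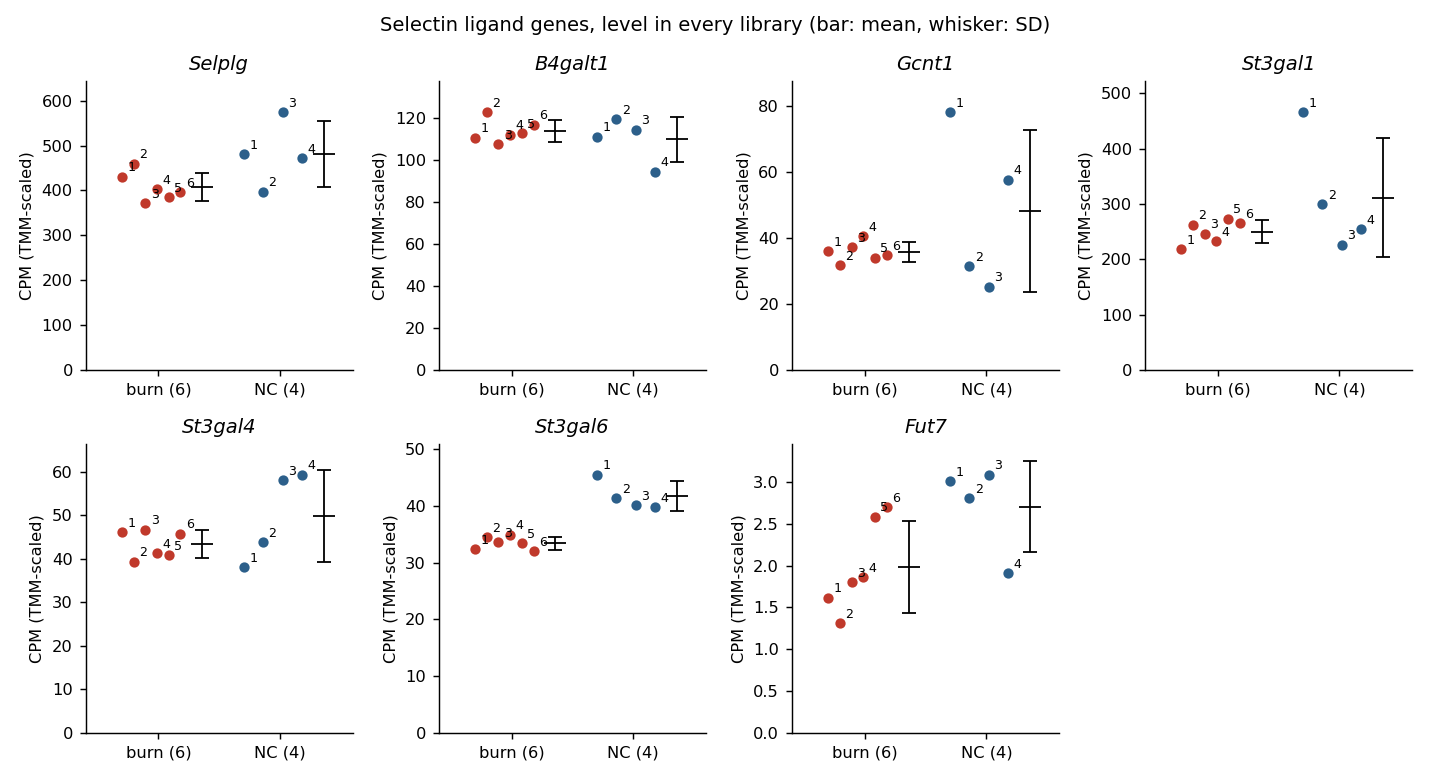
Level of each of the 7 genes in every library, in TMM-scaled CPM, with burn libraries 1 to 6 in red, NC libraries 1 to 4 in blue and the mean and SD of each group in black. All 6 burn libraries lie below all 4 NC libraries for St3gal6, while Gcnt1 and St3gal1 overlap and reach their highest values, 78.3 and 466.4 CPM, in NC 1.

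The counter-receptor gene Selplg (ENSMUSG00000048163; mm10 chr5:113818536-113832644, minus strand, protein coding) was abundant in all libraries. In burn its lowest value was 372 CPM, its median 399 and its highest 459. The NC libraries 1 to 4 stood at 481, 397, 575 and 472 CPM. The groups overlapped because NC 2 lay inside the burn range, while the other NC libraries lay above every burn library. The burn mean was 407.5 ± 32.0 CPM (SD, n = 6), the NC mean was 481 ± 72.7 CPM (SD, n = 4), and the log2 difference was -0.24 (SE 0.11, 95% interval -0.48 to -0.001).

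NC 3, the library with the most Selplg, was also the highest on the T cell markers, with a summed level of 2406 CPM against 1511 to 1965 CPM in burn. NC 1, which had the next highest Selplg level, was the lowest of all libraries on the same markers, at 1232 CPM. Of the 8 T cell markers 4 had lower and 4 higher estimates in burn, and none was at 0. Their part in the Selplg difference was not tested.

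Gcnt1 (ENSMUSG00000038843; mm10 chr19:17326141-17372844, minus strand), the core 2 branching enzyme, was the most variable of the 7 genes within NC. In burn the lowest value was 31.9 CPM, the median 35.5 and the highest 40.6. NC 1 to 4 had values of 78.3, 31.6, 25.3 and 57.7 CPM. NC 1 and NC 4 lay above every burn library and NC 2 and NC 3 below every burn library, so the NC values enclosed the burn values. The coefficient of variation was 8.29% in burn and 50.8% in NC. The log2 difference was -0.43 (SE 0.25, 95% interval -0.98 to 0.12), and it was -0.67 without NC 3, -0.09 without NC 1 and 0.33 without NC 1 and NC 4.

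The libraries with most Gcnt1 were those with the most neutrophil RNA. NC 1, NC 4 and burn 4 held the top 3 places, in that order, both for Gcnt1 and for the summed neutrophil markers, which were 5952, 4529 and 2305 CPM there. NC 2, with the lowest neutrophil sum of 575.5 CPM, and NC 3, with 954 CPM, had the lowest Gcnt1 levels. The order did not match throughout, since burn 5, at 769 CPM, had a lower neutrophil sum than NC 3. Burn 2, at 1303 CPM, had a higher neutrophil sum than burn 5 and burn 6 but the lowest Gcnt1 level in burn, 31.9 CPM. All 9 neutrophil markers, among them the calprotectin genes S100a8 and S100a9 and the chemokine receptor Cxcr2, had lower estimates in burn, none passed in edgeR and none was at 0. Cxcr2 stood at 402, 14.4, 37.7 and 325 CPM in NC 1 to 4 and at 20.8 to 89.9 CPM in burn. The part of neutrophil RNA in the Gcnt1 values was not tested.

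**Figure D3:**
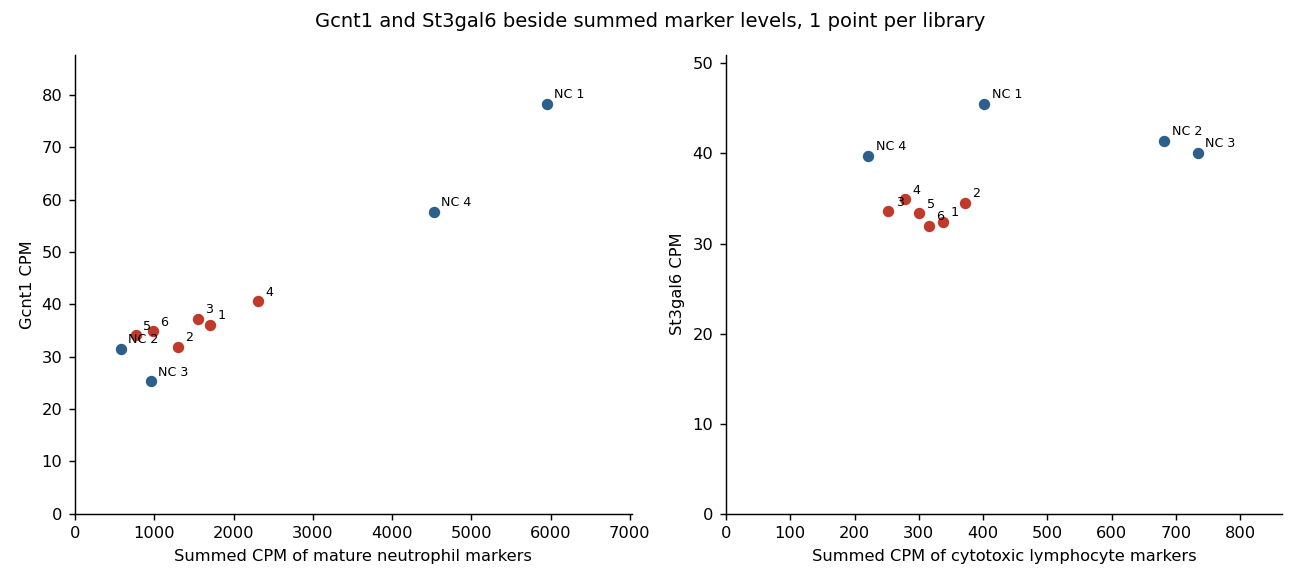
Left, Gcnt1 CPM against the summed CPM of 9 mature neutrophil markers; right, St3gal6 CPM against the summed CPM of 8 cytotoxic lymphocyte markers, with 1 point per library, burn libraries numbered in red and NC libraries in blue. On the left NC 1 and NC 4 stand apart at 5952 and 4529 CPM of neutrophil markers, and on the right NC 4, with the lowest marker sum of 222 CPM, lies above all burn libraries for St3gal6.

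The 3 listed starts of Gcnt1 are shown, because a count per gene adds up transcripts from all of them. The windows are credited to RefSeq on GRCm38.p6, run from 250 bases before to 50 bases after a start on the minus strand, and lie at chr19:17372795-17373094, chr19:17356618-17356917 and chr19:17339456-17339755. Capitals mark matches on either strand to any of 6 short motifs. The core promoter element searched for was TATAAA. The element bound by SP family factors was written as GGGCGG and is called the GC box. The element of NF-Y was written as CCAAT. The PU box, named for a myeloid and B cell factor, was searched for as GAGGAA. The T-box site was searched for as AGGTGTGA, and the site of ETS family factors as CCGGAAGT. No motif contains another, though adjacent GC boxes can share bases.
Gcnt1 start at 17372795-17373094: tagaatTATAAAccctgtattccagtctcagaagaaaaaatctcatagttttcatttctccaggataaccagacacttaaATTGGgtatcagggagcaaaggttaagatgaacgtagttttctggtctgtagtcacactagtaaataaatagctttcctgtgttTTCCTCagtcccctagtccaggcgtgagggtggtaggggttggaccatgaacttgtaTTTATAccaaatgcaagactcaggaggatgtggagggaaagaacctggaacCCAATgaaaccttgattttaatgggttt
Gcnt1 start at 17356618-17356917: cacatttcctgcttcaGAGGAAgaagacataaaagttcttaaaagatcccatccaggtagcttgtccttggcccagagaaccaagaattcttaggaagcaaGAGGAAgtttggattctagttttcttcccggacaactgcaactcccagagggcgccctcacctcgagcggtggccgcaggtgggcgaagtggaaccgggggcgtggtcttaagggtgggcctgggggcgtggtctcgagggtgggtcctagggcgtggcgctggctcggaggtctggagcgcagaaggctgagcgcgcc
Gcnt1 start at 17339456-17339755: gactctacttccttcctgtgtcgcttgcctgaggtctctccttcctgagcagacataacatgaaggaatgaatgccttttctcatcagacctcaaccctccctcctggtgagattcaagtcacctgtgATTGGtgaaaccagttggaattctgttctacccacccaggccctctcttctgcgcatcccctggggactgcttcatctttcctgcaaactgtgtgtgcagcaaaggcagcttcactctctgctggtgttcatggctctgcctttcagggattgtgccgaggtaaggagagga
The first window had 40.7% G and C with 2 TATA boxes, 2 CCAAT boxes and 1 PU box. The second had 58.7% G and C, 16 CG pairs, 2 PU boxes and no TATA box, and the third had 52.0% G and C with 1 CCAAT box. Among 32851 windows of the same length the TATA box was found in 13.6%, the CCAAT box in 37.4% and the PU box in 28.3%. The counts do not tell which start was in use.

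B4galt1 (ENSMUSG00000028413; mm10 chr4:40804602-40854005, minus strand), a galactosyltransferase of the Golgi that builds lactosamine, was nearly level across the libraries. In burn its lowest value was 107.5 CPM, its median 112 and its highest 123. In NC 1 to 4 the values were 111, 119.5, 114 and 94.4 CPM. The groups overlapped, and NC 4 was the lowest of the 10 libraries. The log2 difference was 0.05 (SE 0.08, 95% interval -0.13 to 0.23) and took the opposite sign without NC 4, at -0.06, without burn 2, at -0.01, and without NC 1 and NC 4, at -0.04.

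St3gal1 (ENSMUSG00000013846; mm10 chr15:67102875-67176830, minus strand), which caps core 1 glycans with sialic acid, owed its highest value to a single NC library. In burn the lowest value was 219 CPM, the median 255 and the highest 274. The NC libraries 1 to 4 stood at 466.4, 299.6, 226 and 254 CPM. NC 1 and NC 2 lay above every burn library, and NC 3 and NC 4 lay within the burn range. The log2 difference was -0.32 (SE 0.17, 95% interval -0.70 to 0.06), and it was -0.05 without NC 1 and -0.48 without NC 3.

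NC 1 and NC 2 were also the libraries with the highest summed level of the 8 platelet markers, 9329 and 5200 CPM, followed by NC 3 with 4699 CPM, whereas burn ranged from 2055 to 4256 CPM. NC 3 had the second lowest St3gal1 level, so the libraries did not follow the same order throughout. Of the 8 platelet markers 7 were tested and all 7 had lower estimates in burn, while Gp1bb was at 0 in 8 of 10 libraries. Their part in the St3gal1 values was not tested.

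The balance between core 2 branching and core 1 capping transcripts varied more within NC than within burn. The ratio of Gcnt1 to St3gal1 on the FPKM scale was 0.144 to 0.207 in burn, with a median of 0.168. In NC 1 to 4 it was 0.200, 0.125, 0.133 and 0.27. NC 4 lay above and NC 2 and NC 3 below every burn library. NC 1, highest on both genes, had a ratio inside the burn range.

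St3gal4 (ENSMUSG00000032038; mm10 chr9:35046576-35119268, minus strand) encodes an enzyme that puts sialic acid on lactosamine ends and is known in mice for its part in selectin binding of leukocytes. In burn its lowest value was 39.3 CPM, its median 43.5 and its highest 46.7. Values in NC 1 to 4 were 38.1, 43.8, 58.1 and 59.3 CPM. NC 3 and NC 4 lay above every burn library and NC 1 below every burn library, so NC 1 was the lowest library on St3gal4 and the highest on St3gal1. The log2 difference was -0.20 (SE 0.12, 95% interval -0.47 to 0.07), and without NC 1 it was -0.31. The gene overlaps the non-coding gene 4930581F22Rik on the opposite strand, with a longest exon overlap of 181 bases. That neighbour had a mean of 14.1 CPM, and the handling of strand in the counting is not given in the sources used here, so the level of St3gal4 is uncertain to that extent.

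St3gal6 (ENSMUSG00000022747; mm10 chr16:58468125-58524243, minus strand), the other sialyltransferase of lactosamine ends, was in CPM the tightest of the 7 genes within each group. It was also the only gene of the 7 whose groups did not overlap. In burn the lowest value was 32.0 CPM, the median 33.5 and the highest 34.9. The NC libraries 1 to 4 stood at 45.5, 41.4, 40.1 and 39.8 CPM. The burn values all lay under the NC values, with a gap from 34.9 CPM in burn 4 to 39.8 CPM in NC 4. The burn mean was 33.5 ± 1.14 CPM (SD, n = 6) and the NC mean 41.7 ± 2.64 CPM (SD, n = 4). The log2 difference was -0.32 (SE 0.07, 95% interval -0.46 to -0.17), and over all alternatives run it stayed between -0.39 and -0.23. On the deposited FPKM scale the groups were also apart, at 5.23 to 5.85 in burn and 6.11 to 7.26 in NC. On that scale B4galt1 was slightly tighter within NC, with a coefficient of variation of 6.8% against 7.31% for St3gal6.

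St3gal6 overlaps Dcbld2 on the opposite strand, with a longest exon overlap of 1603 bases, and Dcbld2 had a mean of 0.71 CPM. As for St3gal4, the handling of strand in the counting is not given, so the levels of St3gal6 and Dcbld2 are uncertain to that extent. No marker list had summed levels that separated the groups. The 8 cytotoxic lymphocyte markers all had lower estimates in burn and summed to 253 to 372 CPM in burn and to 402, 682, 733.5 and 222 CPM in NC 1 to 4. NC 4 thus lay below every burn library on these markers and above every burn library on St3gal6. The 5 connective tissue markers all had lower estimates in burn and summed to 3.61 to 21.98 CPM in burn and 21.8 to 53.8 CPM in NC, where burn 1 alone reached the NC range. The 7 dendritic cell markers, all with lower estimates, summed to 49.97 to 58.8 CPM in burn and 56.2 to 95.1 CPM in NC. The platelet markers summed to 2055 to 4256 CPM in burn and to 9329, 5200, 4699 and 2352 CPM in NC 1 to 4. NC 1, NC 2 and NC 3 were the highest libraries, in that order, on these markers and on St3gal6. NC 4 lay within the burn range on the platelet markers. None of these markers was at 0 in all libraries, and their part in the St3gal6 values was not tested.

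**Figure D4:**
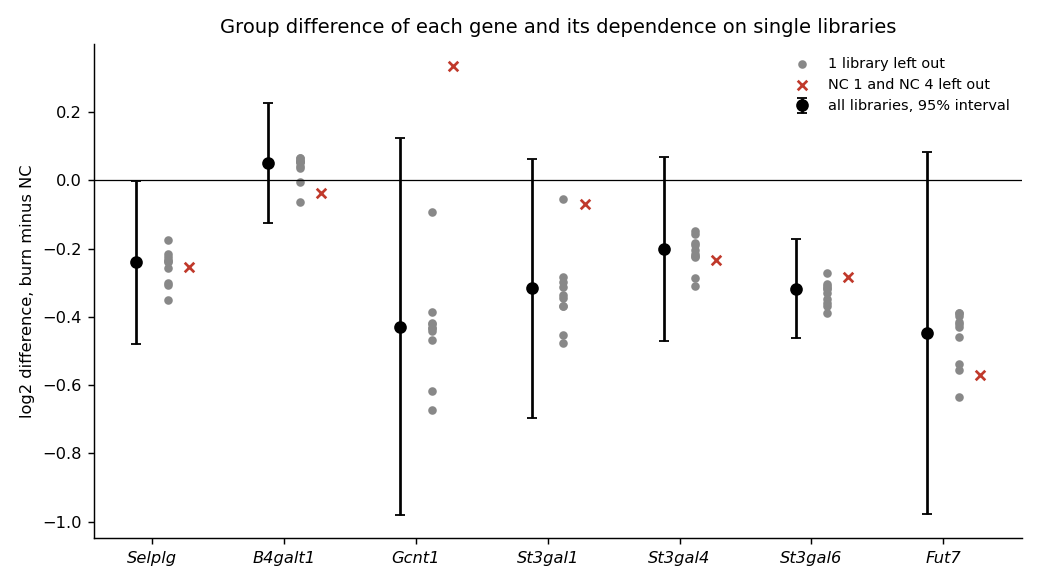
log2 difference of burn minus NC for each of the 7 genes, with the 95% interval from the edgeR fit on all libraries (black), the values with 1 library left out (grey) and the value without NC 1 and NC 4 (red cross). St3gal6 stays between -0.39 and -0.27 when 1 library is left out, whereas Gcnt1 moves from -0.43 to 0.33 without NC 1 and NC 4.

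The 2 listed starts of St3gal6 are shown because the gene's levels separated the groups, and its starts differ in base composition. The windows were taken and marked as for Gcnt1, lie on the minus strand of GRCm38.p6 and are credited to RefSeq.
St3gal6 start at chr16:58524204-58524503: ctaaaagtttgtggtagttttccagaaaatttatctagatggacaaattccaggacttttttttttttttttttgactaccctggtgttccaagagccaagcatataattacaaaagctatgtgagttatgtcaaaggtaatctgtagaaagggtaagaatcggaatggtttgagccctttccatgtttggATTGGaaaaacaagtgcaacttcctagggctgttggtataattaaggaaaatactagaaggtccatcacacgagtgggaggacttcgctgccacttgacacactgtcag
St3gal6 start at chr16:58523377-58523676: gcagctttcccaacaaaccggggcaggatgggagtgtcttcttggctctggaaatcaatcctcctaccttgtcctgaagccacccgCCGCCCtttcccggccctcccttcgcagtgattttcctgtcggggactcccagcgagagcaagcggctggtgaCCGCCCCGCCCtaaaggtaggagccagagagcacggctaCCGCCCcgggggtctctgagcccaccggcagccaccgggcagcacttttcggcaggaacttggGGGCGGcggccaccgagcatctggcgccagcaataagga
The first window had 38.7% G and C, 3 CG pairs and 1 CCAAT box. The second had 64.7% G and C, 20 CG pairs and 5 GC boxes, a motif found in 35.7% of the 32851 windows. For comparison, the median window had 52.7% G and C and 7 CG pairs. Of the 7 genes 5 were in the promoter table, with 9 windows in all. GC boxes were found in 4 of these windows, CCAAT boxes in 5, PU boxes in 4 and the TATA box in 1. The T-box site, which T-bet and its relatives bind, was found in 0 of the 9 and in 1.28% of all windows, and the ETS site in 0 of the 9 and 3.89%.

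The 3 sialyltransferase genes together were dominated by St3gal1. Its share of their summed FPKM was 60.4% to 67.4% in burn. In NC 1 to 4 the share was 77.0%, 66.9%, 55.6% and 58.1%. NC 1 lay above and NC 3 and NC 4 below the burn range. The ratio of St3gal6 to St3gal4 on the same scale was 0.331 to 0.416 in burn and 0.566, 0.448, 0.327 and 0.318 in NC 1 to 4, with NC 1 and NC 2 above and NC 3 and NC 4 below the burn range.

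Fut7 (ENSMUSG00000036587; mm10 chr2:25423267-25426374, plus strand), the fucosyltransferase that completes sialyl Lewis x, was rare. Its counts were 44 to 90 in a burn library and 98, 97, 89 and 67 in NC 1 to 4. In burn the lowest value was 1.31 CPM, the median 1.83 and the highest 2.70. The 4 NC values were 3.01, 2.81, 3.09 and 1.91 CPM. The groups overlapped, since burn 5 and burn 6 lay above NC 4. Within burn the highest value was 2.06 times the lowest, the widest relative range of the 7 genes there. The log2 difference was -0.45 (SE 0.24, 95% interval -0.98 to 0.08), and it ran from -0.70 with the replicate number as a block to -0.20 on log2(FPKM + 1). Burn 5 and burn 6 add nothing to the group difference with that block. On log2(FPKM + 0.1) the difference was -0.38.

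The genes whose levels ran most like those of each of the 7 were looked for among 9777 other genes with a mean of at least 5 CPM, by Pearson's r of log2 CPM over the same 10 libraries. These are the highest of many values, the 10 points span both groups and share library depth and cell make-up, and no p is given. For Gcnt1 they were Tirap, an adaptor of Toll-like receptors, with r = 0.98 and Spearman's rho = 0.94, Gk, which encodes glycerol kinase, and Trim30b. Without NC 1 and NC 4, the libraries farthest from the Gcnt1 median, the r of Tirap was 0.92.

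For St3gal1 they were Nav1 with r = 0.99 and rho = 0.95, and Asap1. Without NC 1 and burn 1 the r of Nav1 was 0.94. For St3gal6 they were Il18rap, which encodes an accessory chain of the receptor for interleukin-18, with r = 0.92 and rho = 0.65, Rnf11 and Snx10. Without NC 1 and NC 2 the r of Il18rap was 0.83, over libraries that still span both groups. On average Il18rap had 49.9 CPM in burn libraries against 90.8 CPM in NC. Il18rap, Rnf11 and Snx10, like St3gal6, were higher in every NC library than in any burn library. Their r values therefore include the group difference. Within burn the order differed, since burn 4, highest on St3gal6, had 47.4 CPM of Il18rap and burn 6, lowest on St3gal6, had 51.7 CPM.

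For Selplg they were Tob1 with r = 0.94 and rho = 0.98, Rhog and Fxyd5. The r of Tob1 was 0.81 without NC 3 and NC 1. For St3gal4 they were Xbp1, a transcription factor of antibody-secreting cells, with r = 0.94 and rho = 0.87, Irf1 and Ing2, and the r of Xbp1 was 0.76 without NC 4 and NC 3. For Fut7 they were Zfp984 with r = 0.93 and rho = 0.90, Pbx3 and Flt1. For B4galt1 the closest was mt-Nd5 with r = 0.88 and rho = 0.72, which was 0.54 without NC 4 and burn 2.

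Among themselves the 7 genes did not move as a block. Over the 10 libraries Pearson's r of log2 CPM was highest for the pair Gcnt1 and St3gal1, at 0.68, and for St3gal1 and St3gal6, at 0.65. It was lowest for B4galt1 with St3gal4, at -0.58, and B4galt1 with Gcnt1, at -0.56. These are descriptions over 10 libraries for 21 pairs, and NC 1, which was highest on Gcnt1, St3gal1 and St3gal6, weighs on the first 2.

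The other genes of the pathway were described from 11 lists with 102 genes, drawn from textbook knowledge without the 7. Of the 91 that could be tested, 0 passed in edgeR in either direction and 0 in DESeq2, where the backgrounds were 0.0% and 0.493% of all genes. At an unadjusted p under 0.05 there were 6 with higher values in burn and 4 with lower ones, 10 of 91 in all, which is near the 11.3% of all genes tested. The median log2 difference was 0.00 over these 91 genes.

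**Figure D5:**
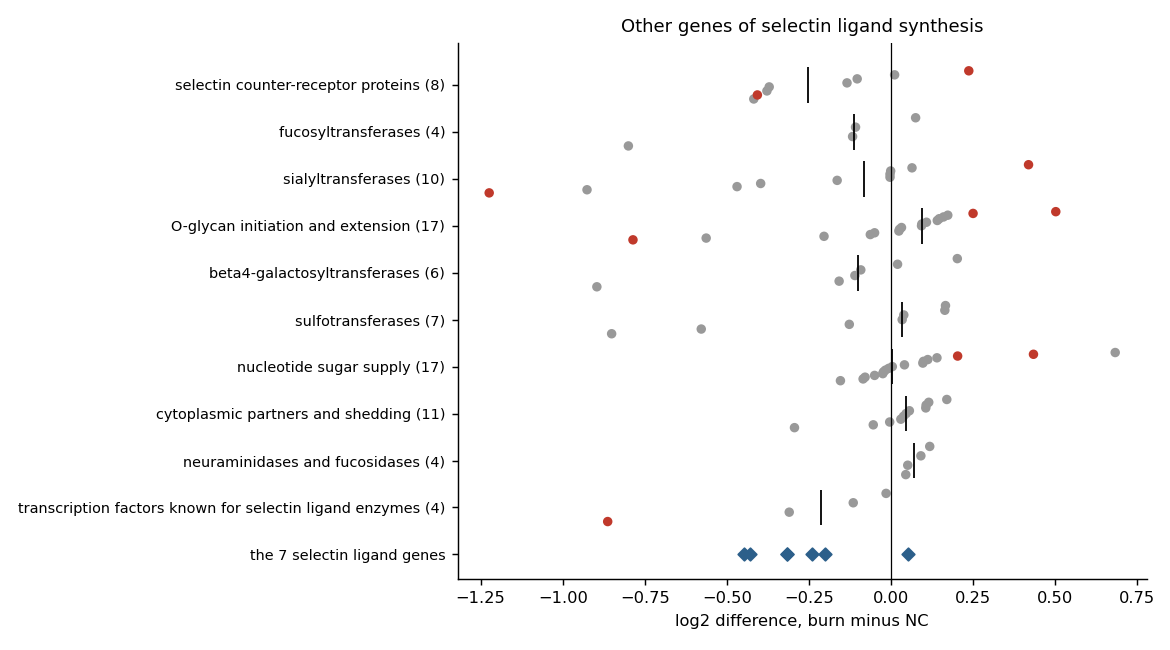
log2 difference of burn minus NC for the tested genes of 10 of the pathway lists, the selectins left out, 1 point per gene, with the median of each list as a black line, genes at an unadjusted p under 0.05 in red and the 7 selectin ligand genes as blue diamonds at the bottom. The lists scatter on both sides of 0, and the 10 red points fall in both directions.

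The selectins of the vessel wall and of platelets had low levels. Selp, the selectin of platelets and endothelium, had a mean of 2.42 FPKM and Sele, of activated endothelium, 0.648 FPKM. Selp stood at 5.82 to 12.5 CPM in burn and at 19.9, 10.8, 7.60 and 9.06 CPM in NC 1 to 4, and its edgeR adjusted p was 0.76. NC 1, the highest on Selp, was also the highest on the platelet markers. Counts of Sele per library ranged from 38 to 87 in burn and from 23 to 81 in NC, and its edgeR adjusted p was 0.72.

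Among the other proteins that can carry selectin ligands, 8 of 11 listed genes were tested, 0 passed and 2 had an unadjusted p under 0.05, a level that 11.3% of all genes tested reached. Cd44, a hyaluronan receptor that binds E-selectin when suitably glycosylated, stood at 343 ± 29.8 CPM in burn and at 551, 384, 359 and 524 CPM in NC 1 to 4, with a log2 difference of -0.41 (SE 0.13) and an edgeR adjusted p of 0.39. NC 1 and NC 4, the libraries with most neutrophil RNA, had the most Cd44, and the part of neutrophil RNA was not tested. Glg1, which encodes the E-selectin ligand ESL-1, stood at 219 ± 14.6 and 186 ± 23.8 CPM, a log2 difference of 0.24 (SE 0.10) with an edgeR adjusted p of 0.41. Spn, which encodes the sialomucin CD43, had nearly the same mean in both groups, at 393 ± 37.4 and 389.9 ± 115 CPM. Its values in NC 1 to 4 were 257, 490.5, 482 and 330 CPM, around a burn range of 351 to 439 CPM.

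Among the other sialyltransferases, St3gal5, which makes the ganglioside GM3, had a mean of 50.5 FPKM but ranged from 13.97 FPKM in NC 1 to 107 FPKM in NC 2, and St6gal1, which adds sialic acid to lactosamine in another linkage and so competes for the same ends, had 33.5 FPKM. Of 10 genes tested 0 passed and 2 reached an unadjusted p under 0.05, against 11.3% of all genes tested. St6gal1 stood at 140.2 to 222 CPM in burn and at 130.3, 132, 148 and 136 CPM in NC 1 to 4, a log2 difference of 0.42 (SE 0.14) with an edgeR adjusted p of 0.39. The groups overlapped between 140.2 and 148 CPM. The 8 B cell markers, of which all 8 had higher estimates in burn, summed to 2072 to 3091 CPM in burn and 1962 to 2595 CPM in NC, and their part in the St6gal1 values was not tested. St6gal2 was rare, at 0.239 and 0.557 CPM on average.

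Fucosyltransferases that could stand beside Fut7 were also low. Fut4, which shares the synthesis of sialyl Lewis x on mouse leukocytes with Fut7, had a mean of 1.51 FPKM, and Fut9 had 0.0646 FPKM. The most abundant of the list were Fut11, at 4.47 FPKM, and Fut8, which adds the core fucose of N-glycans, at 3.52 FPKM. Of the 4 tested genes 0 passed and 0 reached an unadjusted p under 0.05, and the mean of Fut4 was 5.94 ± 1.15 CPM in burn against 6.44 ± 0.627 CPM in NC.

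Enzymes that start and extend O-glycans were measured for 17 of 19 genes, with 12 higher and 5 lower estimates and 0 calls. Over all genes tested, 9454 had higher and 7814 lower estimates. C1galt1, the core 1 synthase whose product both Gcnt1 and St3gal1 use, had a mean of 28.1 FPKM, and its chaperone C1galt1c1 had 18.2 FPKM. Galnt3, an initiating GalNAc transferase, was the only one of the 91 pathway genes whose groups did not overlap, where 2.03% of all genes tested did not, with a burn range of 0.819 to 1.73 CPM and an NC range of 1.91 to 2.39 CPM, with an edgeR adjusted p of 0.39. The other branching enzymes Gcnt3 and Gcnt4 had too few counts to be tested. Gcnt2, which branches lactosamine chains, stood at 44.8 ± 4.73 CPM in burn and at 88.0, 28.6, 45.7 and 103 CPM in NC 1 to 4, so NC 1 and NC 4 were its highest libraries as they were for Gcnt1.

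Tyrosine sulfation of PSGL-1, which P-selectin binding also needs, depends on Tpst1 and Tpst2, whose means were 6.96 and 22.6 FPKM. Neither passed, with edgeR adjusted p values of 0.54 and 0.78. The sugar donors came with 17 tested genes and 0 calls. Among them, Gmds, of GDP-fucose synthesis, had 4.68 ± 0.414 CPM in burn against 3.47 ± 0.796 CPM in NC, with an edgeR adjusted p of 0.40, and Fcsk, which salvages fucose, stood at 11.8 ± 0.794 and 10.2 ± 0.558 CPM, with one of 0.44. The GDP-fucose transporter gene Slc35c1 had 60.8 and 61.8 CPM on average. The CMP-sialic acid synthetase gene Cmas varied widely, at 304 ± 93.2 and 305 ± 146 CPM.

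The list of other beta4-galactosyltransferases had 6 tested genes and 0 calls, with B4galt5 the most abundant at 19.1 FPKM, below B4galt1. Of 11 cytoplasmic partners and sheddases linked to PSGL-1 and selectins 0 passed, and the moesin gene Msn, whose product links PSGL-1 to the actin cortex, was abundant at 209 FPKM. Of 4 tested neuraminidases and fucosidases 0 passed and all 4 had slightly higher estimates, with a median of 0.07 log2 units. Higher estimates were found for 9454 of all 17268 genes tested.

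T-bet, the transcription factor known in mouse T cells for inducing selectin ligand enzymes, is encoded by Tbx21. It stood at 6.74 to 9.98 CPM in burn and at 12.6, 23.5, 19.9 and 7.46 CPM in NC 1 to 4, a log2 difference of -0.86 (SE 0.26) with an edgeR adjusted p of 0.39. NC 4 lay within the burn range. Without NC 1 and NC 4 the gene passed in edgeR, 1 of 27 genes that did among 18134 tested there. That alternative was chosen after seeing the data and left only the 2 NC libraries with the highest Tbx21 values. Nothing is therefore read from the pass. Cytotoxic lymphocyte markers were highest in NC 3 and NC 2 too, and their part was not tested. Gata3, Stat4 and Stat6, the other factors of the list, had lower estimates and edgeR adjusted p values of 0.50, 0.62 and 0.97.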

How the data were processed

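The 6 burn and 4 NC libraries of mouse blood RNA were grouped by the treatment label. Per the labels' protocols, TRIzol RNA went into paired-end mRNA-seq libraries. The authors deposited 1 table of 30984 genes with raw counts and FPKM per library, per the file headers. The deposited FPKM values could be recomputed from the counts, library totals and gene lengths to within a relative 2.9e-13. Reads were placed on mm10, per the submitters' processing notes. Aligner, counter and strand setting: not given in the sources used here.

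The filterByExpr filter (minimum count 10) retained 17268 genes. edgeR 4.0.16 in R 4.3.3 fitted burn against NC with TMM scaling and no covariate, using the quasi-likelihood test with p-values adjusted by Benjamini-Hochberg over all genes tested with a threshold of 0.05. The SE of a log2 difference is its size divided by the square root of F. DESeq2 1.42.0 and limma 3.58.1 served as alternatives. The fits were also run on simulated counts, where only edgeR's median estimates were required to lie near the simulated difference. Positions came from GENCODE mouse release 21, which held 30367 of the identifiers, and promoter windows from RefSeq.

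The 7 genes and all lists were chosen with earlier results of these data known. Genes named beyond them are selectins, up to 4 genes of each pathway list with the smallest unadjusted p, the 2 with the highest mean FPKM, up to 3 most like each of the 7 and the cell type markers. Some genes that this rule takes are not reported here. Spn, C1galt1c1, Gcnt3 and Gcnt4 fall outside this rule and were chosen after their values were seen. No pair of replicates agreed within sampling noise (lowest chi-square per degree of freedom 15.8 in burn and 78.8 in NC). Library totals were 30677206 to 36379663 counts, and Fut7 had 44 to 98 counts per library.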

Additional observations from a re-analysis of the deposited data

How the results depend on the processing

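The edgeR count of 0 genes over the whole table was 85 in DESeq2, 15 higher and 70 lower, 1 in limma on log2(FPKM + 1), 1 in limma on log2(FPKM + 0.1), and 0 to 10 with 1 library left out, with 10 without burn 1 and 3 without NC 4. Without NC 1 and NC 4, chosen after seeing the data, it was 27, all lower. Of the 7 selectin ligand genes 1 passed in DESeq2, St3gal6, and 0 to 0 with 1 library left out. Of the pathway genes 1 passed without NC 1 and NC 4, Tbx21, on which these were the lowest NC libraries, and 0 to 0 with 1 library left out. Scaling by RLE or upper quartile, no filter and the CPM filter left all these counts at 0. The replicate numbers are not stated to pair the libraries, and same-numbered libraries deviated together with r of -0.05, -0.04, -0.07 and 0.34. With the replicate number as a block the counts were 0 over all genes, 0 of the 7 and 0 of the pathway genes. Burn 5 and burn 6, which have no NC library of their number, add nothing to the group difference in that fit.

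Of the 7 log2 differences, those of Selplg, St3gal1, St3gal4, St3gal6 and Fut7 kept their sign in all 19 alternatives, B4galt1 in 16 and Gcnt1 in 18. Leaving out 1 library moved Gcnt1 between -0.67 and -0.09 and St3gal1 between -0.48 and -0.05, with the weaker end without NC 1 and the stronger without NC 3 for each, and St3gal4 between -0.31 without NC 1 and -0.15 without NC 3. On log2(FPKM + 1) the differences were smaller, at -0.22 for Gcnt1, -0.21 for St3gal1, -0.12 for St3gal4 and -0.20 for Fut7, and B4galt1 reached 0.11 on log2(FPKM + 0.1). An added 1 is about the median level of Fut7, 0.978 FPKM, and so shrinks its difference. On log2(FPKM + 0.1) Fut7 was at -0.38 and Gcnt1 at -0.235. With the replicate number as a block Gcnt1 was -0.27 and Fut7 -0.70. In that fit burn 5 and burn 6 add nothing to the group difference. These were the burn libraries with the most Fut7, at 2.59 and 2.70 CPM. Beyond this, the cause was not tested.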
